A study of Mus musculus with 7 samples.

Results

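The 8 genes described here carry the signal from insulin and insulin-like growth factors to the kinase Akt: Insr, Igf1r, Irs1, Irs2, Irs4, Pik3ca, Inpp5d and Akt1. They were chosen by name, with earlier results of these data known, in which Irs4 was among the larger rises in M colonies over GC colonies; which values chose the others is not known. All 8 were found among the 54838 genes of the deposited table, and all 8 passed the filter on low counts in both fits. For the comparison of M with GC colonies, their values are therefore given as a description, without a test.

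Poly-A RNA came from 7 mouse cultures. The 3 M colonies and the 3 GC colonies are induced pluripotent stem cell (iPSC) clones, each grown from 1 picked colony. The starting cells were germinal center (GC) B cells, sorted as B220+ CD38- Fas+ from spleens of male mice that had received SRBC 9 days earlier. GC colonies come from the bulk of these cells. M colonies are read as those from cells sorted by the endogenous Myc-GFP reporter, since the design names no other source, although the titles do not spell out M. Both sources spent 6 days with cytokines on a layer of mouse embryonic fibroblasts and then 10 days with doxycycline, which switches on the reprogramming genes. Both then had 4 days without the drug, 1 passage on gelatin and 45 min of pre-plating to remove feeders. They are set against 1 library of the mouse embryonic stem cell (ESC) line V6.5, which did not pass through a B cell. Serum and LIF, which keeps mouse stem cells undifferentiated, were in the KO-DMEM of all cultures. The labels give neither mouse strain, donor nor batch, so p-values reflect only how far these colonies differ from each other, and an effect of the source cannot be told apart from one of the donor.

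Libraries held 31139508 to 35728921 counts. M colonies 2 and 3 stood apart, with 50 and 39 counts over all Y-linked genes. M colony 1 had 7860, GC colonies 9620 to 13237 and ESC 5714. Values without M colonies 2 and 3 are given for some of the results that they move, not for all. The ESC library also stood apart on chromosome 8, described with Insr and Irs2. Pluripotency markers were high in every library, in CPM (counts per library size, scaled by TMM factors), but their sum was lower in colonies than in ESC. The 12 markers summed to 5361 to 5839 CPM in M colonies, 5529 to 5699 CPM in GC colonies and 7327 CPM in ESC. In the edgeR test described below, 8 of the 12 were called lower in colonies than in ESC, against 7.56% of all genes. Another 1 was called higher, against 8.76% of all genes. In M over GC colonies 2 were called higher, against 1.7% of all genes. The B cell gene Ms4a1 stayed at or below 0.0599 CPM in every library. Other genes of the blood and B cell marker list were present in every library, ESC included. Among them were Cd37 (6.91 to 18.9 CPM), Blnk (5.26 to 9.16 CPM) and Cd79b (1.47 to 3.49 CPM).

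Insulin and the insulin-like growth factors bind the receptor kinases Insr and Igf1r, which phosphorylate insulin receptor substrates (Irs), large docking proteins without enzyme activity. Phosphorylated Irs proteins recruit phosphoinositide 3-kinase, whose catalytic subunit Pik3ca makes the membrane lipid PIP3. Akt1 is drawn to PIP3 and activated there, and the phosphatase Inpp5d (SHIP1) dephosphorylates PIP3. In mouse embryonic stem cells this pathway favours growth and self-renewal, and FoxO transcription factors, which Akt holds out of the nucleus, are known to act on the genes Insr and Irs2 in other tissues.

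The RNA of all 3 Irs genes lay lowest in the ESC library, and Irs2 and Irs4 lay highest in M colonies. Their promoters, windows from 250 bases before to 50 after the start of each gene (RefSeq, GRCm38.p6), share one stretch of letters, shown here because these 3 genes had the largest log2 changes over ESC. In capitals are CACGTG, the core of the E-box bound by many basic helix-loop-helix factors, and TGTTTTG, a variant of the core that FoxO factors bind. Each sequence reads 5′ to 3′ towards its gene on the minus strand, and each ends before the start of transcription. The Irs1 stretch is chr1:82291511-82291614, the Irs2 stretch is chr8:11008930-11009033 and the Irs4 stretch is chrX:141725328-141725431.
Irs1: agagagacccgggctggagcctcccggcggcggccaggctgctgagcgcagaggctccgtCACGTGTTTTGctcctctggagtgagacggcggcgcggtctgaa
Irs2: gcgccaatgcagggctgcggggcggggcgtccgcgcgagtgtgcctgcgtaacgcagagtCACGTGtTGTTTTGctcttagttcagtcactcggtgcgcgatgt
Irs4: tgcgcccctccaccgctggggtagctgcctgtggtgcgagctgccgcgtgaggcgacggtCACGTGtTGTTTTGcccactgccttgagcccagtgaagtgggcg

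In Irs2 and Irs4 the 2 motifs stand 1 base apart, whereas in Irs1 they overlap by 2 bases. The E-box begins at position -115 in Irs1, -44 in Irs2 and -154 in Irs4, counted from the RefSeq start. The GENCODE starts differ from these, so the positions hold for the RefSeq starts only. For Irs1 (82291416) and Irs4 (141725263) the GENCODE start lies inside the window. The whole Irs2 window, 11008880 to 11009179, lies upstream of the GENCODE start at 11008458. Searched on both strands, CACGTG is in 7.15% of 32851 promoter windows and TGTTTTG in 6.28%, and both are in 0.408%. The whole stretch CACGTGTTGTTTTG, chosen after the sequences were seen, is in 2 windows, those of Irs2 and Irs4. The shorter CACGTGTTTTG of Irs1 is in 7 windows, of 6 genes. The windows of Inpp5d, Pik3ca, Igf1r and Akt1 hold neither CACGTG nor TGTTTTG. Those of Pik3ca (32396815 to 32397114) and Igf1r (67952007 to 67952306) lie wholly upstream of the GENCODE starts at 32397671 and 67952827. The Inpp5d window lies at the start of the full gene, not at the internal promoter described with Inpp5d below. One of the 2 Akt1 windows holds TGTTTAC, the FoxO core itself, which is in 3.65% of windows. Insr has no entry in the promoter table. The Irs1 window holds a second TGTTTTG at -32. CpG pairs numbered 28, 41 and 19 in the windows of Irs1, Irs2 and Irs4, against a median of 7 over all windows. The quartiles over all windows were 3 and 20, so Irs4 lay between them. Other windows held 48 pairs (Igf1r), 20 (Pik3ca), 6 (Inpp5d), and 8 and 42 (the 2 of Akt1). These matches describe letters only.

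Irs4 (ENSMUSG00000054667, chromosome X from 141710998 to 141725263) encodes a docking protein found in few adult tissues, such as the hypothalamus. It had 11.9, 8.44 and 13.7 CPM in M colonies, against 2.69, 3.72 and 4.99 CPM in GC colonies and 1.31 CPM in ESC. These are 390, 282 and 431 counts in M colonies, 97, 122 and 159 counts in GC colonies and 39 counts in ESC. Each M colony was above each GC colony, and each colony was above ESC. M colonies averaged 11.3 ± 2.7 CPM and GC colonies 3.80 ± 1.15 CPM (SD, n = 3 each). The log2 change of M over GC colonies was 1.58 ± 0.23 (SE), a 2.98-fold difference that ranked 41 from the top of 18166 tested genes and 3 from the top of 651 on chromosome X. Leaving out 1 colony at a time moved it between 1.38 and 1.83, and without M colonies 2 and 3 it lay within that range.

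Irs2 (ENSMUSG00000038894, chromosome 8 from 10984681 to 11008458), a substrate that mediates insulin action in liver and pancreatic beta cells, was the most abundant of the 3. Its values were 49.2, 44.0 and 47.6 CPM in M colonies, 34.9, 35.2 and 37.0 CPM in GC colonies and 20.8 CPM in ESC. The 3 groups did not overlap, in the order M, GC, ESC. The log2 change of M over GC colonies was 0.39 ± 0.08 (SE), and 0.46 without M colonies 2 and 3.

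Irs1 (ENSMUSG00000055980, chromosome 1 from 82233101 to 82291416), the main substrate of muscle and fat, was the scarcest. It had 3.06, 2.52 and 3.11 CPM in M colonies, 2.33, 2.53 and 2.698 CPM in GC colonies, and 0.402 CPM in ESC. M and GC colonies overlapped, with a log2 change of 0.20 ± 0.22 (SE), while all 6 colonies stood several times above ESC. The ESC value rests on 12 counts, against 100, 84 and 98 counts in M colonies and 84, 83 and 86 counts in GC colonies.

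**Figure D1:**
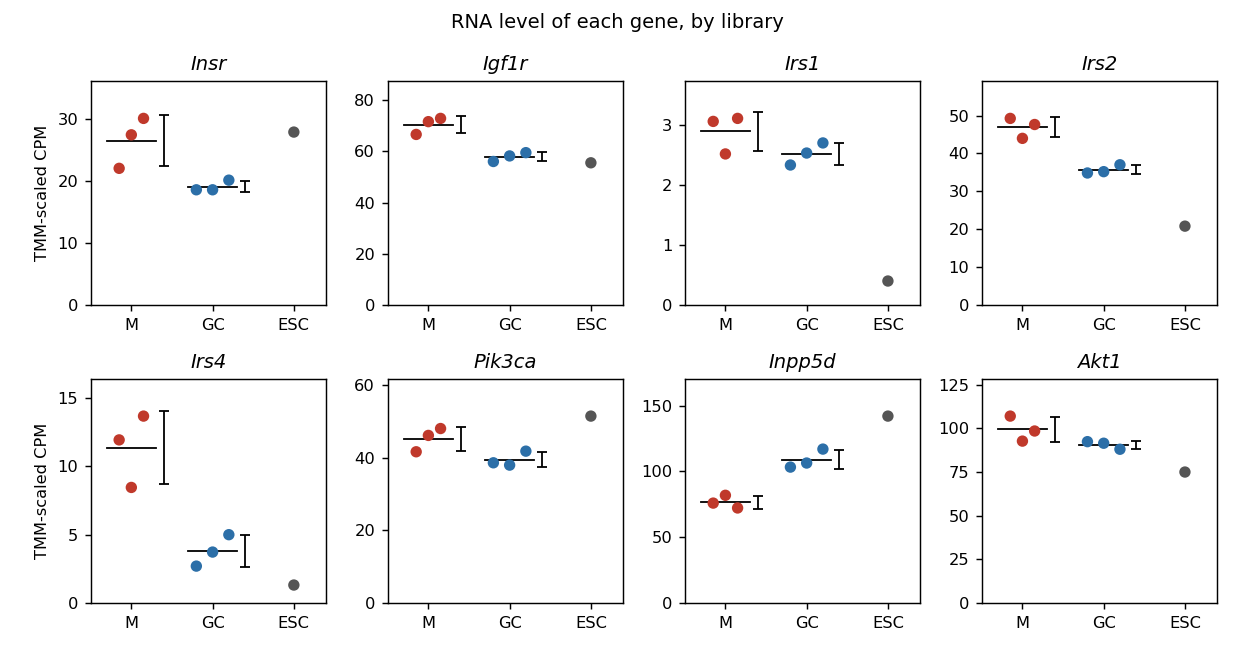
RNA level (TMM-scaled CPM, linear axes from 0) of the 8 genes in each library, with a line at the mean and a bar of ± 1 SD beside each group of 3 colonies; ESC is 1 library. Irs2 and Irs4 fall in the order M, GC, ESC and Inpp5d in the opposite order, whereas Irs1 separates colonies from ESC but not M from GC colonies.

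Levels of different genes were set side by side per length, as CPM per kilobase of merged exons. The 3 Irs genes summed to 9.54 ± 0.84 in M colonies, 6.52 ± 0.38 in GC colonies (SD, n = 3 each) and 3.55 in ESC. Irs2 gave most of it in every library, with 78.0% ± 3.1 in M colonies, 86.6% ± 2.3 in GC colonies and 92.9% in ESC. Irs4 gave 18.7% ± 3.0 of the sum in M colonies, 9.17% ± 2.26 in GC colonies and 5.85% in ESC. Its share ran from 15.7% to 21.6% over M colonies and from 6.90% to 11.4% over GC colonies, so the groups did not overlap. The Irs1 share was 3.31% ± 0.09 in M colonies, 4.22% ± 0.10 in GC colonies and 1.24% in ESC. Irs4 thus exceeded Irs1 in every library, 5.64 ± 0.76 times in M colonies, 2.17 ± 0.50 times in GC colonies and 4.72 times in ESC.

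**Figure D2:**
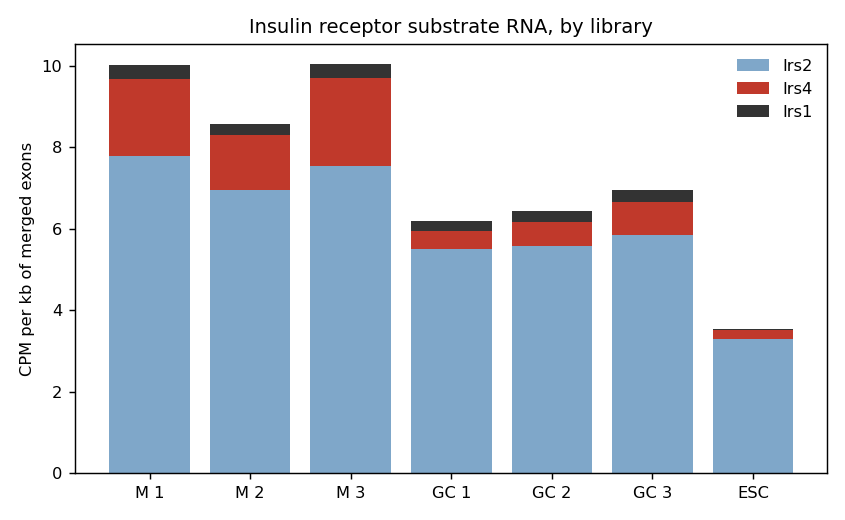
Summed RNA of Irs2, Irs4 and Irs1 (CPM per kilobase of merged exons, stacked) in each library. The sum is 8.57 to 10.0 in M colonies, 6.19 to 6.94 in GC colonies and 3.55 in ESC, and the Irs4 segment is tallest in M colonies.

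Across the 8 genes the order of levels per kilobase was the same in M and GC colonies. Akt1 came first with 24.2 ± 1.8 in M colonies and 22.1 ± 0.6 in GC colonies. Inpp5d followed with 10.1 ± 0.6 in M and 14.3 ± 0.9 in GC colonies, then Irs2, Pik3ca, Igf1r, Insr, Irs4 and Irs1. In M colonies Insr (1.93 ± 0.30) and Irs4 (1.80 ± 0.42) did not differ beyond their spread, whereas in GC colonies they were 1.39 ± 0.07 and 0.604 ± 0.183. In ESC, Inpp5d (18.7) stood just above Akt1 (18.3), and Irs2 (3.30) lay level with Igf1r (3.31). Per kilobase of the longest transcript instead of merged exons, Igf1r stood above Pik3ca in M colonies (6.17 and 5.08) and GC colonies (5.08 and 4.43). On that scale Igf1r (4.87) also stood above Irs2 (3.30) in ESC. In M colonies Insr (2.83 ± 0.44) then stood above Irs4 (1.80 ± 0.42) by more than their spread. Both near-ties therefore rest on the use of merged exons.

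Insr (ENSMUSG00000005534, chromosome 8 from 3122061 to 3279617) had 22.0, 27.4 and 30.0 CPM in M colonies, 18.6, 18.6 and 20.1 CPM in GC colonies and 27.8 CPM in ESC. M colonies lay above GC colonies and on both sides of ESC, and M colonies 2 and 3 were the higher ones. The log2 change of M over GC colonies was 0.47 ± 0.12 (SE), and 0.20 without M colonies 2 and 3. Igf1r (ENSMUSG00000005533, chromosome 7 from 67952827 to 68233668), the receptor of insulin-like growth factors, had 66.7, 71.7 and 72.9 CPM in M colonies. It had 56.1, 58.3 and 59.6 CPM in GC colonies, the lowest just above the 55.6 CPM of ESC. Its log2 change of M over GC colonies was 0.28 ± 0.07 (SE). Per kilobase, Igf1r exceeded Insr by 2.20 ± 0.25 times in M colonies, 2.49 ± 0.07 times in GC colonies (SD, n = 3 each) and 1.63 times in ESC.

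Inpp5d (ENSMUSG00000026288, chromosome 1 from 87620312 to 87720507) ran the other way from the Irs genes. This phosphatase is best known from blood cells, and mouse embryonic stem cells make a shorter form from an internal promoter, which counts per gene do not separate. It had 75.9, 81.9 and 72.2 CPM in M colonies, 103, 106 and 117 CPM in GC colonies and 142 CPM in ESC. The 3 groups did not overlap. The log2 change of M over GC colonies was -0.51 ± 0.07 (SE), between -0.56 and -0.45 when 1 colony at a time was left out. The sum of 16 blood and B cell markers moved the same way, with 72.7 to 97.8 CPM in M colonies, 99.7 to 108 CPM in GC colonies and 120 CPM in ESC. Of these genes, 12 were tested in M over GC colonies and 1 fell, Cd37, against 2.27% of all genes, while 2 fell in iPSC colonies over ESC, against 7.56% of all genes. Most of that sum was Laptm5 and Cd37, and Ptprc, which defines blood cells, was at most 0.245 CPM in any library. Laptm5 overlapped between M and GC colonies, and Vav1 was higher in each M colony than in any GC colony. Myeloid markers, 8 in all, ran the other way, at 36.3 to 42.6 CPM in M colonies, 34.7 to 37.8 CPM in GC colonies and 31.7 CPM in ESC. Of them, 1 was called higher in M over GC colonies, against 1.7% of all genes, and 2 over ESC, against 8.76%. The part of blood cells in the Inpp5d result was not tested. In bulk RNA, fewer cells of a type and less RNA per cell cannot be told apart.

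Pik3ca (ENSMUSG00000027665, chromosome 3 from 32397671 to 32468486) had 41.7, 46.2 and 48.1 CPM in M colonies, 38.7, 38.0 and 41.9 CPM in GC colonies and 51.5 CPM in ESC. M and GC colonies overlapped, and all 6 lay below ESC. Akt1 (ENSMUSG00000001729, chromosome 12 from 112653821 to 112674884) had 107, 92.7 and 98.5 CPM in M colonies, 92.4, 91.5 and 88.0 CPM in GC colonies and 74.96 CPM in ESC. Its groups were separated by less than 1 CPM between M colony 2 and GC colony 1, and all 6 colonies lay above ESC. The log2 changes of M over GC colonies were 0.20 ± 0.08 (SE) for Pik3ca and 0.13 ± 0.07 (SE) for Akt1. Without M colonies 2 and 3 they were 0.08 for Pik3ca and 0.24 for Akt1. Per kilobase, Inpp5d exceeded Pik3ca by 2.03 ± 0.21 times in M colonies, 3.30 ± 0.09 times in GC colonies (SD, n = 3 each) and 3.30 times in ESC. The size of these ratios depends on the length used. Per kilobase of the longest transcript, Inpp5d and Pik3ca were at 15.5 and 5.08 in M colonies and 22.1 and 4.43 in GC colonies. In ESC they were at 28.8 and 5.78.

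Over the 8 genes, M colonies lay wholly above GC colonies in 5 and wholly below in 1, against 10.1% and 12% of all 18166 tested genes, and overlapped in 2. Nothing is read from these counts, because this comparison was in view when the genes were chosen. The median log2 change was 0.24 for the 8 genes and 0.003 for all tested genes.

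**Figure D3:**
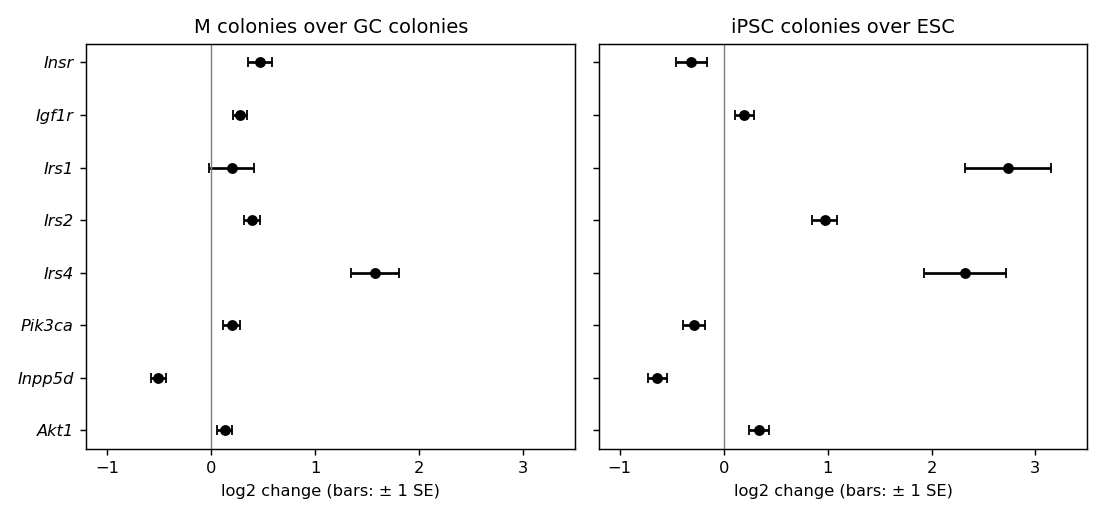
Log2 change (± 1 SE from the edgeR fit) of each gene in M over GC colonies, from 6 libraries, and in iPSC colonies over ESC, from 7 libraries with 1 of ESC. Irs4 has the largest value in the first comparison (1.58), and Irs1 (2.73) and Irs4 (2.32) in the second.

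Set against ESC, the colonies had more RNA of all 3 Irs genes and of Akt1, and less of Inpp5d. In this comparison edgeR's quasi-likelihood test with Benjamini-Hochberg adjustment over 20502 genes called 5 of the 8 (4 higher, 1 lower), against 16.3% of all genes tested (8.76% higher, 7.56% lower). The genes were chosen with earlier results known, so these calls are no independent support. The spread comes from the 6 colonies, and the 1 ESC library is assumed to vary like them. The log2 change of Irs1 was 2.73 ± 0.41 (SE), with an edgeR adjusted p = 4.94e-04. Irs4 was higher by 2.32 ± 0.39 (SE), with an edgeR adjusted p = 0.00118, and Irs2 by 0.97 ± 0.12 (SE), with an edgeR adjusted p = 1.10e-04. Inpp5d was lower, at -0.64 ± 0.09 (SE), with an edgeR adjusted p = 3.80e-04. These 4 calls held when any 1 colony was left out and without M colonies 2 and 3. Akt1 was higher by 0.34 ± 0.10 (SE), with an edgeR adjusted p = 0.0285, a call lost without GC colony 2 (0.0657).

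Igf1r, Insr and Pik3ca did not pass. Their log2 changes over ESC were 0.20 ± 0.10 (SE), -0.31 ± 0.15 (SE) and -0.28 ± 0.11 (SE), with edgeR adjusted p-values of 0.184, 0.200 and 0.0948. Without M colonies 2 and 3, Insr was called lower, with a log2 change of -0.44 and an edgeR adjusted p = 0.0480. M and GC colonies were also each set against the same ESC library, so that both sets of changes share it. Of all genes, 8.84% were called higher and 7.37% lower in M colonies over ESC, and 7.53% higher and 5.51% lower in GC colonies over ESC. Irs4 was 3.11 ± 0.41 (SE) above ESC on the log2 scale in M colonies and 1.53 ± 0.40 (SE) in GC colonies. Inpp5d was at -0.89 ± 0.10 (SE) in M colonies and -0.38 ± 0.10 (SE) in GC colonies. Irs1 was at 2.83 ± 0.42 (SE) in M colonies and 2.63 ± 0.42 (SE) in GC colonies. Insr was at -0.07 ± 0.16 (SE) in M colonies and -0.55 ± 0.16 (SE) in GC colonies, and was called lower in GC colonies (edgeR adjusted p = 0.0411) but not in M colonies (0.828). Pik3ca was likewise called lower in GC colonies (edgeR adjusted p = 0.0440) but not in M colonies (0.331). Igf1r was called higher in M colonies (edgeR adjusted p = 0.0363) but not in GC colonies (0.764), and so was Akt1 (0.0158 in M colonies and 0.101 in GC colonies). Whether these pairs of changes differ was not tested.

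Insr and Irs2 lie on chromosome 8, where genes as a group had less RNA in colonies than in ESC. The median log2 change of its 1039 tested genes was -0.25, against 0.02 over all genes, and 25.4% of them were called lower, against 7.56% of all genes. The Insr change of -0.31 lay at -0.05 from its chromosome's median. Irs2 went against its chromosome: less that median, its log2 change was 1.23. On chromosome X the median was 0.19, and less that median the Irs4 change was 2.13. In M over GC colonies the medians of chromosomes 8 and X were 0.01 and 0.04. The part of these chromosome-wide shifts in single genes was not tested.

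**Figure D4:**
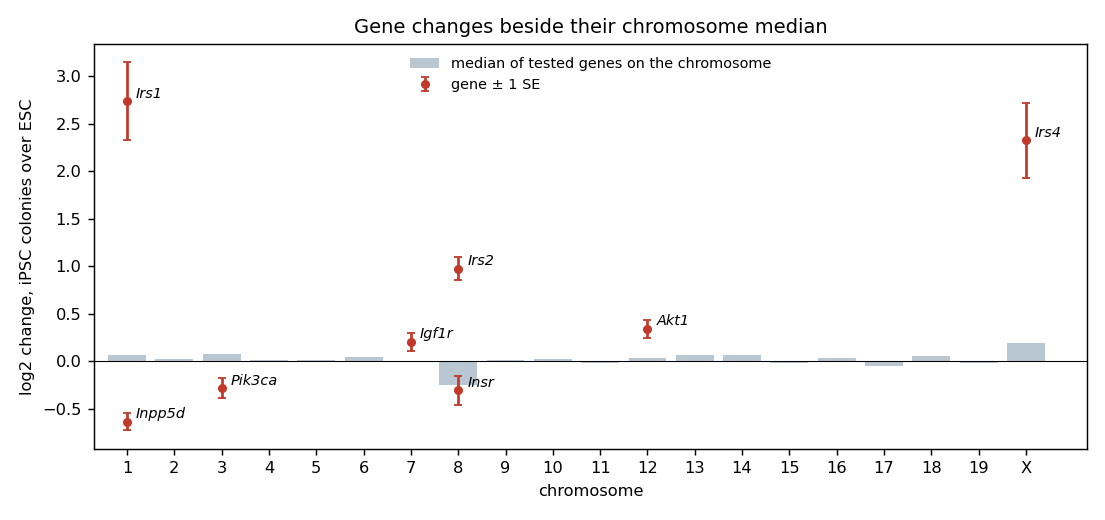
Log2 change in iPSC colonies over ESC of the 8 genes (points, ± 1 SE) beside the median of all tested genes on each chromosome (bars). Chromosome 8 has the lowest median (-0.25), with Insr near it and Irs2 far above it.

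Markers of primitive endoderm, an extraembryonic lineage that appears in such cultures, were lowest in ESC, as were the Irs genes. The 15 markers summed to 9026, 5882 and 9280 CPM in M colonies, 6056, 5261 and 6219 CPM in GC colonies and 1809 CPM in ESC. All 15 were called higher in colonies than in ESC, against 8.76% of all genes, and 4 were called higher in M than in GC colonies, against 1.7% of all genes. M colony 2 had the lowest sum of the M colonies, inside the range of GC colonies, and its Irs4 (8.44 CPM) and Irs2 (44.0 CPM) were also the lowest of the M colonies but above every GC colony. Within GC colonies the order differed: GC colony 2 had the lowest sum, whereas GC colony 1 had the lowest Irs4 (2.69 CPM) and Irs2 (34.9 CPM). Fibroblast markers, 18 in all, summed to 1212 to 1547 CPM in M colonies, 1219 to 1327 CPM in GC colonies and 710 CPM in ESC. Of them, 9 were called higher in colonies than in ESC, against 8.76% of all genes. The part of these cells in the Irs values was not tested.

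Likeness of pattern was measured as Pearson's r of log2 CPM over the 7 libraries, a description in which the distance of ESC from the colonies weighs heavily. Nearest to Irs4 were Rabep1 (0.995), Dll1 (0.995) and Mmp14 (0.992), and 125 genes had an r above 0.95. Nearest to Irs2 were Has2 (0.998), Arhgap18 (0.998) and Foxq1 (0.995), the last a forkhead factor that is among the primitive endoderm markers here. Nearest to Irs1 were Atxn7l3b, Pde10a and Crim1 (0.998, 0.998 and 0.997), and nearest to Inpp5d were Mthfd1l, Cmklr1 and Ceacam16 (0.992, 0.991 and 0.991). Akt1 lay nearest to Mfsd1 (0.993), Igf1r to Akap5 (0.993), Pik3ca to Apbb2 (0.996) and Insr to Nono (0.985).

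The rest of the pathway was read from 112 other genes in 9 lists, from ligands to FoxO targets. In M over GC colonies 98 of them were tested, of which 1 rose and 3 fell (4.08%), against 3.97% of all genes tested, and 20 had an unadjusted p under 0.05 (20.4%), against 16.6% of all genes. Igf2, a ligand of Igf1r and an imprinted gene, rose to 13.8 ± 1.7 CPM in M colonies, against 8.39 ± 1.43 CPM in GC colonies (SD, n = 3 each), with an edgeR adjusted p = 0.0208. Tcl1, an Akt coactivator of early embryos and lymphocytes, fell to 29.8 ± 2.8 CPM in M colonies, against 44.2 ± 1.8 CPM in GC colonies, with an edgeR adjusted p = 0.00318. Inpp4b, a chromosome 8 gene for a phosphatase acting after SHIP enzymes, fell to 0, 10 and 2 counts in M colonies, against 51, 46 and 56 counts in GC colonies, with an edgeR adjusted p = 0.00925. ESC had 8 counts of it, so M colonies lay near ESC. Klf15, a FoxO target, fell to 3.91 ± 1.02 CPM in M colonies, against 6.77 ± 0.39 CPM in GC colonies (edgeR adjusted p = 0.0423). Leaving out single colonies ended the call of Klf15 in 5 of 6 cases, of Igf2 in 4 of 6 and of Inpp4b in 1 of 6. Tcl1 stayed called in each. Without M colonies 2 and 3, neither Igf2 (edgeR adjusted p = 0.327) nor Tcl1 (edgeR adjusted p = 0.0720) was called.

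The 94 other tested list genes did not pass in M over GC colonies, among them all tested receptor adaptors, PI3K subunits, Akt substrates and mTORC1 genes. Pik3r1, the main regulatory subunit of PI3K, had 21.5 ± 0.9 CPM in M colonies and 19.2 ± 1.1 CPM in GC colonies (SD, n = 3 each). Foxo1 had a log2 change of 0.01 and Foxo3 of 0.17, with edgeR adjusted p-values of 0.979 and 0.504. Eras, a Ras protein of embryonic stem cells that activates PI3K, had 26.1 ± 2.9 CPM in M colonies and 33.6 ± 3.0 CPM in GC colonies, with an edgeR adjusted p = 0.0760.

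In colonies over ESC, 99 of the 112 genes were tested, and 14 rose and 12 fell (26.3%), against 16.3% of all genes. The median log2 change was -0.02 for the lists and 0.02 for all genes. Of 10 tested ligands and binding proteins 5 rose and 1 fell (60%). Igf2 ranged from 6.74 to 15.5 CPM over the 6 colonies, against 0.838 CPM in ESC, a log2 change of 3.67 ± 0.31 (SE) with an edgeR adjusted p = 9.44e-06. Igfbp3, which binds insulin-like growth factors, ranged from 34.8 to 42.4 CPM in colonies, against 15.6 CPM in ESC (edgeR adjusted p = 2.89e-05). Insrr, an orphan relative of the insulin receptor, rose to between 20 and 72 counts in colonies, against 4 counts in ESC, but limma-voom did not call it (adjusted p = 0.181). Ins1 had 0 counts in every library, and Ins2 had counts in GC colony 1 alone.

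Among 12 adaptors Grb10, an imprinted inhibitor of both receptors, rose (0.99 ± 0.21 SE, edgeR adjusted p = 0.00552) and Gab1, a docking protein on chromosome 8, fell. These were 16.7% of the adaptors, near the 16.3% called of all genes. Of 11 tested PI3K subunits Pik3cb and Pik3ap1 rose, and Pik3c2b and the chromosome 8 gene Pik3r2 fell (36.4%). Pik3cb, the other broadly expressed catalytic subunit, had a log2 change of 0.43 ± 0.11 (SE), against -0.28 ± 0.11 (SE) for Pik3ca. Pik3c2b, a class II enzyme, had a log2 change of -0.99 ± 0.15 (SE), with an edgeR adjusted p = 4.84e-04. Pik3ap1, an adaptor of B cells, rose to between 19 and 40 counts in colonies, against 4 counts in ESC, and limma-voom did not call it (adjusted p = 0.146).

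Among the phosphatases Ppp2r1a fell, with a log2 change of -0.26 ± 0.07 (SE) and an edgeR adjusted p = 0.0230. Inppl1 (SHIP2), the broadly expressed relative of Inpp5d, did not pass, with a log2 change of -0.08 and an edgeR adjusted p = 0.673. Tcl1 fell to between 26.6 and 45.9 CPM in colonies, against 116 CPM in ESC, a log2 change of -1.68 ± 0.10 (SE) with an edgeR adjusted p = 4.39e-07. Eras fell with it (-0.51 ± 0.13 SE, edgeR adjusted p = 0.0180). Of 9 Akt kinases and activators 1 rose (11.1%, against 16.3% called of all genes). It was Prr5l, a partner of the mTORC2 kinase (1.58 ± 0.37 SE). Akt2 and Pdpk1, the kinase that activates Akt, did not pass, with log2 changes of 0.10 and -0.05. Of 18 mTORC1 genes 1 passed (5.56%), and Mtor itself did not (-0.14, edgeR adjusted p = 0.342).

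Of 11 Akt substrates Foxo4 rose and Foxo6 fell (18.2%, against 16.3% called of all genes). Foxo1 (-0.19) and Foxo3 (-0.36) did not pass, with edgeR adjusted p-values of 0.244 and 0.102. Foxo3 was called lower without M colony 1 (-0.29, edgeR adjusted p = 0.0344), without M colonies 2 and 3 (-0.54, 0.00385) and without the low-count filter (-0.37, 0.00233). Of 13 tested FoxO targets 2 rose and 4 fell (46.2%, against the same 16.3%). Fbxo32, a ubiquitin ligase induced in wasting muscle, rose (log2 change 1.32 ± 0.27 SE), as did Cited2, a transcriptional coregulator (0.97 ± 0.12 SE). Klf15 fell, with a log2 change of -1.12 ± 0.22 (SE), and so did Tob1, Txnip and Sod2.

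**Figure D5:**
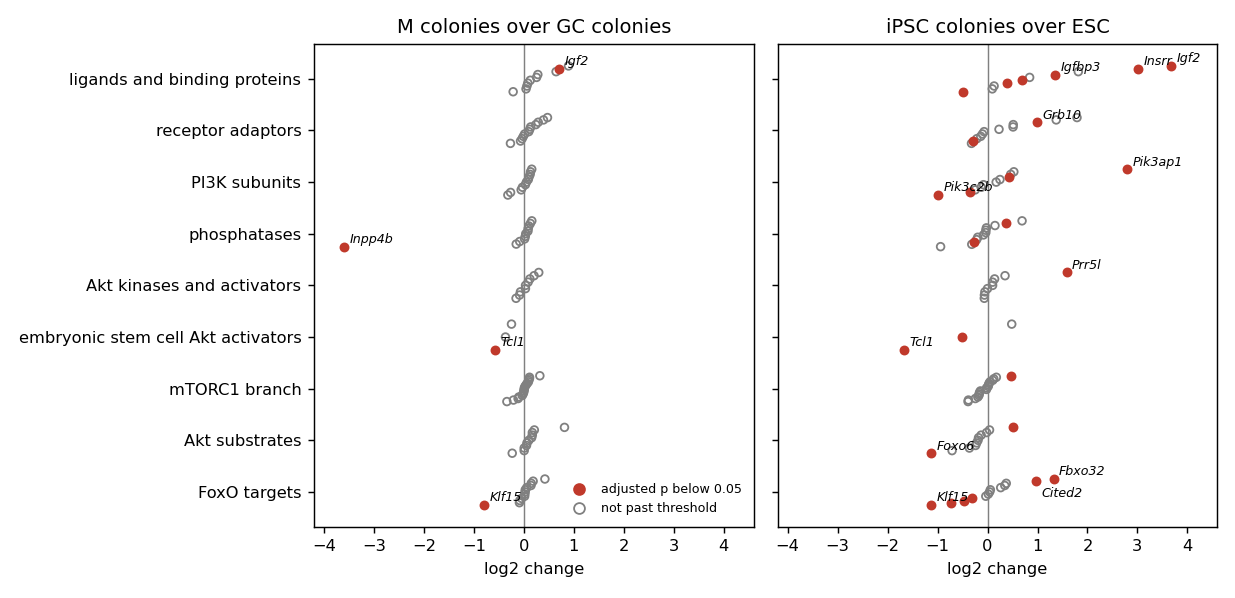
Log2 change of each tested gene of the 9 lists in M over GC colonies and in iPSC colonies over ESC; filled points passed an edgeR adjusted p of 0.05. In M over GC colonies 4 of 98 passed, and in colonies over ESC 26 of 99, with Igf2 highest (3.67) and Tcl1 lowest (-1.68).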

How the data were processed

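The authors deposited raw counts per Ensembl gene, without normalization. The tools named in the submitters' processing notes are STAR 2.7.10a, featureCounts 2.0.6 and DESeq2, with the build mm10 (GRCm38). The labels disagree on whether libraries were directional, and no source used here gives the strand setting, so antisense partners may share counts. The genes antisense to these 8 held at most 7 counts. Among counts of 1 to 49, 68.5% to 72.2% were even, against 49.5% to 50.9% at 1000 or more, so mates of a pair may have been counted singly and counting errors understated. A count of 0 allows up to 3 counts, 0.0832 to 0.1005 CPM by library, for counting error only. That bound takes counts as independent, so it is too low if mates were counted singly.

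Symbols, positions and exon lengths came from GENCODE release M21 (54809 of 54838 genes matched). Groups came from the titles. Genes passing filterByExpr received TMM factors, and edgeR 4.0.16 tested them by quasi-likelihood, two-sided, at an adjusted p of 0.05: 18166 genes for M over GC colonies (6 libraries), 20502 for colonies over ESC (7 libraries, both colony groups averaged). The fits were also run on simulated counts, drawn with the spread estimated from these libraries. There the ESC library was given the same spread as the colonies, and only genes with higher counts were changed. That run therefore cannot check the use of 1 ESC library or results at low counts. Every "adjusted p" is a Benjamini-Hochberg value over all genes of its fit. CPM values use the TMM factors of 7 libraries. A standard error is the log2 change over the square root of its F. DESeq2 1.42.0 and limma-voom (limma 3.58.1) were alternatives. Genes and lists were chosen with earlier results of these data known. Text names the 8 genes, up to 12 list genes passing per comparison by size of change, preset list genes whatever their result (1 is not reported here), and the 3 genes nearest in pattern; other list genes named (Gab1, Pik3r2, Ppp2r1a, Foxo4, Tob1, Txnip and Sod2) were picked after their values were seen. Numbers shared by M and GC colonies did not pair them.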

Additional observations from a re-analysis of the deposited data

How the results depend on the processing

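No value past the threshold, and no change of the 8 genes, turned its sign in any setting; 23 values of 13 other results, none past the threshold, did. Among them, without M colonies 2 and 3, Grb10 in M over GC colonies was -0.15 (0.39 with all colonies), Foxo3 was -0.18 (0.17) and Inpp4b in colonies over ESC was -1.83 (0.69); Pik3ap1 in M over GC colonies was -0.11 without GC colony 2 (0.13). In M over GC colonies, list genes called numbered 4, against 10 without the low-count filter, 7 with DESeq2 and 2 without M colonies 2 and 3, and 2 to 8 when 1 colony was left out. The 8 came without M colony 1 (6 higher, Grb10 and Foxo3 among them), and the 2 came without GC colony 1, GC colony 2, M colony 2 or M colony 3. All genes called numbered 721, against 1318 without the filter, 1110 with DESeq2 and 373 without M colonies 2 and 3, and 244 to 814 with 1 colony left out, the fewest without GC colony 2 or M colony 3 (270). The cause was not tested. In colonies over ESC, 19 to 34 list genes were called over all settings, against 26, and 22 to 30 with 1 colony left out (all genes 2575 to 3718). The correlations of deviations between M and GC colonies of one number were 0.07, 0.07 and 0.16, so the numbers were not taken as pairs; with the number as a replicate block 963 genes and 6 list genes were called. DESeq2 size factors, or TMM factors from genes outside chromosome 8, left 26 and 27 list calls over ESC. Levels of Irs1 (12 counts) and Inpp4b in single libraries are limited by depth. Over ESC, limma-voom called 1194 genes higher and 1584 lower, against 1795 higher and 1549 lower with edgeR.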
